A study of Mus musculus with 30 samples.

Results

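The translatome of enteric glia was examined 3 h after intestinal manipulation (IM3h), the surgical trigger of postoperative ileus, against that of naïve mice. The members of this comparison were all libraries that the *RiboTag* transcript count table of this time point assigned to IM3h or to naïve, which gave 7 libraries (3 naïve and 4 IM3h) of the 30 samples in the series. Transcript values were summed to 22666 genes, of which 16053 passed the filter on low counts and were tested. All mice carried *Sox10*-iCreERT2, a tamoxifen-inducible Cre recombinase driven by the *Sox10* promoter (B6 Tg(Sox10-icre/ERT2)388Wdr/J), together with the *Rpl22* *RiboTag* allele (B6N.129 Rpl22tm1.1Psam/J), and the study's line also held a tdTomato reporter. Naïve mice had no surgery. IM3h mice had isoflurane anaesthesia, tramadol, a laparotomy and rolling of the small bowel, so that the effects of anaesthesia, analgesic, laparotomy and manipulation cannot be told apart. The labels list 4 naïve samples and the table holds 3. The study describes its replicates as animals, but the labels do not say which animal each library came from, and p-values measure the spread between these libraries.

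Enteric glia surround the neurons of the myenteric plexus and send processes through the muscle layers of the muscularis externa (*ME*). They share the transcription factor SOX10 and proteins such as S100B and GFAP with other peripheral glia, and after injury they can turn reactive, a state called gliosis. In *RiboTag* mice a ribosomal protein with an HA tag is made in Cre-expressing cells, and pulldown with an antibody to HA yields the mRNA that was on their ribosomes. A cell that receives a growth factor, cytokine, calcium or stress signal first transcribes immediate early genes, whose induction needs no newly made protein. Their products, mostly transcription factors, then act on a slower wave of secreted factors, matrix genes and stress proteins.

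The libraries held 4831855 to 4938879 estimated counts in naïve mice and 5674277 to 7899493 at IM3h. A gene overlapping ribosomal RNA sequence, *AY036118*, took 2.68% to 14% of the naïve counts and 2.02% to 10.3% of the IM3h counts. IM3h library 4 stood apart, with 15732 detected genes where the other libraries had 16879 or more. The 20 most abundant genes took 26.3% of the counts in that library and in naïve library 1, and 13.5% to 22.2% in the others. The pulldown was checked on 12 glia markers. Against total *ME* RNA of the same condition, their median log2 ratio was 3.34 in naïve mice and 3.23 at IM3h, where the median of 18111 genes was 0.79 and 0.65. Neuron markers were also above that median, at 1.40 and 1.78, with 16 of 17 in naïve mice and 17 of 17 at IM3h higher in the pulldown. In naïve mice the same held for markers of mesothelium (1.01), neutrophils (0.98) and the 1 detected marker of lymphocytes and mast cells (1.53). At IM3h these were at 0.63, 0.18 and -0.68, and smooth muscle markers were at -0.38 and -0.98 in naïve mice and at IM3h. The total *ME* libraries came from a *Gfap*-Cre line and were counted in a separate table, so these ratios and all *ME* values given beside *RiboTag* values are descriptions without a test. Levels are given as TMM-scaled CPM, the counts of a gene relative to the scaled library size, as the value of each library or as mean ± SD (n = 3 naïve and n = 4 IM3h libraries). Log2 fold changes are given with their standard error and the Benjamini-Hochberg adjusted p of edgeR's quasi-likelihood test over all tested genes, and a gene rose or fell where that p was under 0.05.

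Within 3 h, 1445 genes (9.0% of those tested) rose and 738 (4.60%) fell. The rise was often steep, with 525 genes more than 4-fold and 159 genes more than 16-fold higher, compared with 217 and 38 among the genes that fell. Of all called genes, 85 rising and 18 falling genes had at most 3 counts in every library of the lower group, and with such genes set to their bound 115 rose and 25 fell more than 16-fold, with the counts over 4-fold unchanged. The median log2 fold change was 1.65 in genes that rose, -1.64 in genes that fell and -0.04 over all tested genes. Genes that rose took 10.3% to 10.5% of the scaled counts in naïve libraries and 28% to 31.5% at IM3h. Genes that fell took 14.5% to 19.2% and 4.10% to 6.06%. The values of the groups did not overlap for 1413 of the genes that rose and 727 of those that fell, while over all tested genes IM3h lay wholly above naïve in 15.3% and wholly below in 14.3%. At the threshold of the study, an unadjusted p under 0.05 with more than 2-fold change, 1903 genes (11.9%) were higher and 1429 (8.90%) lower.

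The balance of rising and falling genes moved with the scaling of the libraries. With TMM 66.2% of called genes were higher. Scaling by the library total alone gave 987 higher and 940 lower genes (51.2% higher), upper quartile scaling 1204 and 962 (55.6%), and no scaling 1886 and 323 (85.4%). The median of all genes was -0.24, -0.17 and 0.25 under these, so that changes are read relative to it. In a fit with all 15 *RiboTag* libraries, which shares the spread with the other time points, 35 genes rose and 17 fell, and *Fos*, *Gfap*, *Ccl2*, *Socs3* and *Atf3* were among those not called (adjusted p from 0.0566 to 0.89). The call counts also moved with single libraries. Without naïve library 3, 893 genes rose and 286 fell, and without IM3h library 3, 950 rose and 441 fell. The number that fell was 397 without naïve library 1, 375 without naïve library 2, 484 without IM3h library 2 and 1140 without IM3h library 4.

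**Figure D1:**
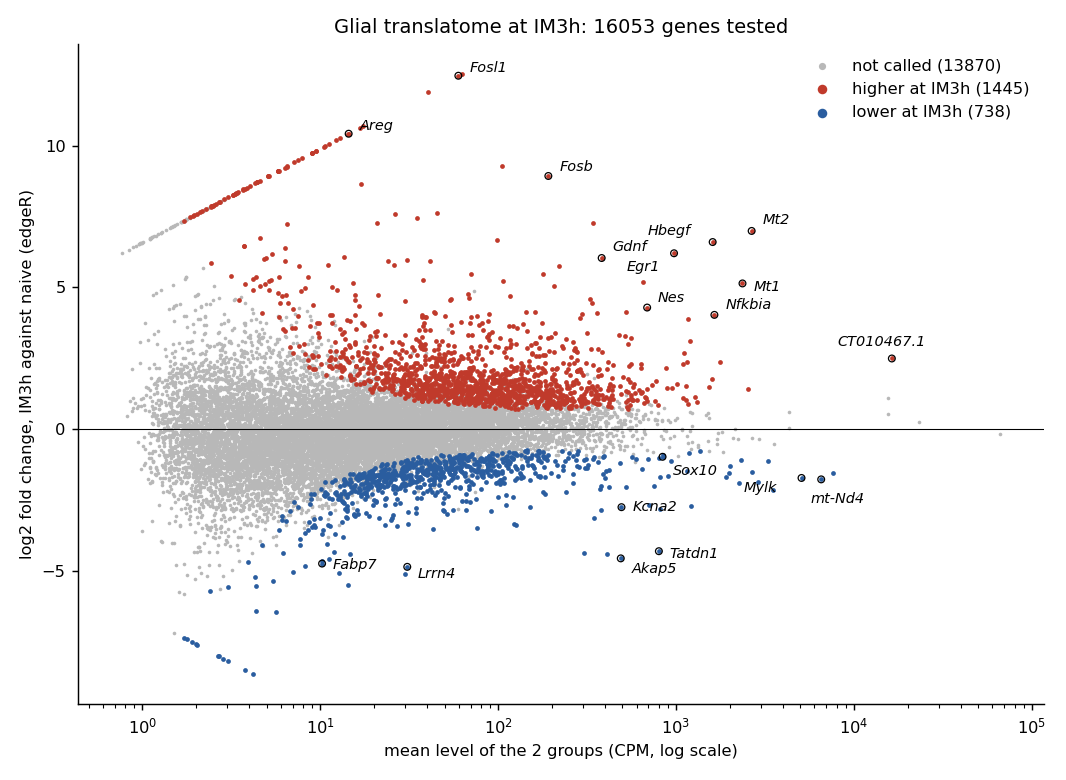
Mean level of both groups (horizontal axis, CPM on a log scale) and log2 fold change of IM3h over naïve (vertical axis) of the 16053 tested genes, with genes of an adjusted p under 0.05 in colour. The 1445 genes that rose reach larger changes than the 738 that fell, and the fitted folds of genes with no count in naïve libraries, such as *Fosl1*, depend on the prior count of the fit.

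The AP-1 factors, leucine zipper proteins that pair to bind a shared DNA element, were among the early transcription factors that rose. Of 14 tested, 11 rose and none fell, with a median log2 fold change of 2.89. *Fosb* had 0.408, 0 and 1.88 CPM in the naïve libraries and 327, 319, 519 and 365 CPM at IM3h, a log2 fold change of 8.93 ± 0.65 (adjusted p = 1.01e-05). *Fos* had 8.36, 3.77 and 4.32 CPM and then 114, 274, 291 and 150 CPM (5.24 ± 0.47, adjusted p = 3.29e-05). *Fosl1* had no count in any naïve library and 25.3, 203, 189 and 60.8 CPM at IM3h, at least 209-fold higher against a floor of 3 counts per library. All 3 were low in every naïve library and well above it in every IM3h library, with *Fosl1* most uneven among the latter. *Atf3*, a stress-induced member, rose from 3.12 ± 1.26 to 138 ± 34.8 CPM, *Fosl2* from 49.8 ± 5.47 to 334 ± 73.7 CPM and *Jun* from 118 ± 29.2 to 962 ± 225 CPM. *Junb* rose from 8.61 ± 6.23 to 225 ± 169 CPM, with 391, 336 and 151 CPM in IM3h libraries 1 to 3 and 23.6 CPM in library 4. *Mafk*, *Mafg*, *Maff* and *Jund* rose too. The range of this count was 9 to 11 when any 1 library was left out.

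The zinc finger factors of the Egr family and the orphan nuclear receptors of the Nr4a family rose in 5 of 6 tested genes, with a median log2 fold change of 4.93, or 4.77 with genes at the floor set to their bound. *Egr1*, which serum and neuronal activity are known to induce, was at 23.5, 40.6 and 13.9 CPM in naïve and at 1486, 2149, 2381 and 1677 CPM in IM3h libraries (6.21 ± 0.43, adjusted p = 9.07e-06). *Egr3* had 0, 0.18 and 1.13 CPM and then 81.6, 81, 141 and 58.9 CPM. *Egr2* had 0, 0 and 0.188 CPM, a single count in 1 library, and then 43.8, 50.5, 33 and 7.56 CPM. No value of these 3 genes overlapped between the groups, and IM3h library 4 was the lowest for *Egr2* and *Egr3*. *Nr4a1* rose 12.5-fold, from 17.9 ± 10.5 to 225 ± 102 CPM, while *Nr4a3* had an adjusted p of 0.168. Of 13 Krüppel-like factors 5 rose, *Klf6* from 83.8 ± 11.1 to 416 ± 115 CPM and *Klf4*, *Klf2* and *Klf9* 4.17-fold, 3.69-fold and 2.14-fold among them.

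The slower regulators followed the same direction in 13 of 18 tested delayed early transcription factors, again with none that fell. *Sox4*, a relative of *Sox10* that acts in progenitor cells, was at 279, 191 and 268 CPM and rose to 1555, 1921, 2219 and 2850 CPM (3.12 ± 0.30, adjusted p = 4.91e-05). *Ets1* rose 17.6-fold, from 15.4 ± 6.23 to 272 ± 69.7 CPM, and *Runx1*, known from blood cell development, 15.9-fold from 9.02 ± 3.12 to 144 ± 27.5 CPM. Its relative *Ets2* rose 3.97-fold. In total *ME* RNA *Ets1* went from 12.8 to 30.0 CPM.

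Many brakes on the same signals rose as well. Of 24 genes tested in a list of feedback inhibitors 15 rose and none fell, with a median of 2.05. Most listed genes dephosphorylate MAP kinases, block growth factor signals or speed the decay of short-lived mRNA. The list also counts immediate early genes of the Ier family, which this description does not cover. *Dusp5*, a nuclear phosphatase of ERK, rose from 13.7, 3.59 and 6.95 CPM to 275, 344, 569 and 538 CPM (5.75 ± 0.49, adjusted p = 2.67e-05). *Errfi1*, an inhibitor of EGF receptors, rose from 5.27 ± 2.72 to 131 ± 39.4 CPM. *Spred2*, an inhibitor of Ras signalling, rose from 12.9 ± 4.06 to 130 ± 31.1 CPM, and in total *ME* RNA it went from 13.9 to 19.8 CPM. *Zfp36*, which binds AU-rich elements and brings about the decay of cytokine mRNA, rose from 15.9 ± 3.5 to 162 ± 78.7 CPM, and *Btg2*, an antiproliferative factor, from 22 ± 1.49 to 169 ± 72.1 CPM.

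Of 25 tested genes listed for cAMP and adrenergic signalling 2 rose, beside 9.0% of all tested genes, none fell, and the median was -0.57. The list does not hold *Akap5*, a scaffold of protein kinase A that fell and is described below. The pair that rose was *Akap12*, a scaffold of protein kinase A, which went from 316, 423 and 375 CPM to 1564, 1729, 1943 and 2519 CPM (2.38 ± 0.26, adjusted p = 0.000141), and *Pde4b*, a phosphodiesterase that degrades cAMP, which went from 108 ± 20.5 to 468 ± 33.4 CPM. The beta-1 adrenergic receptor gene *Adrb1* had 25.9, 27.1 and 47.9 CPM in naïve libraries and 4.28, 8.95, 10.8 and 0 CPM at IM3h. These values did not overlap, but its adjusted p was 0.0779. Of 19 genes known as targets of the cAMP-responsive factor CREB, 10 rose and none fell. Among them *Gem*, a small GTPase, rose 10.9-fold, *Gadd45b* 12.7-fold and the clock gene *Per1* 7.43-fold. Several of these 10, such as *Nr4a1* and *Fosl2*, stand in the lists above as well.

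The promoter windows of 9 genes that rose are shown to place the elements through which such signals are known to reach early, inflammatory and stress genes. Sequences are those of RefSeq on GRCm38.p6, read 5′ to 3′ along the gene, with positions counted from the first transcribed base as 0, and the letters of the element named for each window stand in capitals, while matches to other elements are left in lower case. *Areg* (chr5:91139489-91139598, plus strand), *Btg2* (chr1:134079246-134079355, minus strand) and *Ppp1r15a* (chr7:45526269-45526378, minus strand) hold TGACGTCA, the CRE bound by CREB.
Areg: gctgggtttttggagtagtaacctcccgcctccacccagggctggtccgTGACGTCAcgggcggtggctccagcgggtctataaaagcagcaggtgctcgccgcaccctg
Btg2: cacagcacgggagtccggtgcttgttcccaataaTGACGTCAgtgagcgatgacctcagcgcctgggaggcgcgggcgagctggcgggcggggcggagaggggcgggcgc
Ppp1r15a: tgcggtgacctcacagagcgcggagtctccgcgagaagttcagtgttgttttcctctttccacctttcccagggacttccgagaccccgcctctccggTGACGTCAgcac

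*Zfp36* (chr7:28379229-28379338, minus strand) and *Dusp5* (chr19:53529035-53529144, plus strand) hold the CArG box of the serum response factor, and the window of *Dusp5* holds a pair of them in a row.
Zfp36: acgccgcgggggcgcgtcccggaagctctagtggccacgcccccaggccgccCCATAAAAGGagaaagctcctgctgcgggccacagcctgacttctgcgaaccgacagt
Dusp5: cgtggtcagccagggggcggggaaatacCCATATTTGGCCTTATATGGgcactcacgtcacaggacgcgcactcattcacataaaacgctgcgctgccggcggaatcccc

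*Nfkbia* (chr12:55492648-55492757, minus strand) and *Cxcl1* (chr5:90891135-90891244, plus strand) hold the kappaB element of the factor NF-κB.
Nfkbia: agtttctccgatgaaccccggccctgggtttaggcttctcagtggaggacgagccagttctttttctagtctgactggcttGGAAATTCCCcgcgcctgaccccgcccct
Cxcl1: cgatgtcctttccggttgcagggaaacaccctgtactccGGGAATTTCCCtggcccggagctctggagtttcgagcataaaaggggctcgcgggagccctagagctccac

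*Mt2* (chr8:94172428-94172577, plus strand) holds TGCGCNC and TGCACNC, the forms of the core of the metal response element, on 1 strand each, and *Srxn1* (chr2:152105384-152105493, plus strand) holds TGANTCA, the AP-1 element, at 2 places.
Mt2: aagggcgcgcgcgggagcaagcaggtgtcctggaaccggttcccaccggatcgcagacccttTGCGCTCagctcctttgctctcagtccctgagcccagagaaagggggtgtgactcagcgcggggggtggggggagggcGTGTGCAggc
Srxn1: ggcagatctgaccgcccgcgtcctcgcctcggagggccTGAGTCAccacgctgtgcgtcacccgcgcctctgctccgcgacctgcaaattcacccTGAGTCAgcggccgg

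The elements stood in 1.37% to 36.0% of all promoter windows. Windows from 250 bases before to 50 after the start were on hand for 10795 tested genes, of which 1009 rose and 479 fell, and both strands were searched. The CRE stood in 3.16% of all windows, in 3.87% of those of genes that rose and in 2.51% of those of genes that fell. The AP-1 element stood in 5.09%, 5.45% and 4.8%. The shares were 1.37%, 1.59% and 2.92% for the CArG box and 5.22%, 5.95% and 6.47% for kappaB. They were 36.0%, 41.0% and 32.2% for the metal core, 10.1%, 13.9% and 7.52% for the E-box CACGTG and, with possible overlap of an AP-1 element, 14.6%, 17.9% and 11.9% for the antioxidant element TGACNNNGC. The STAT element TTCNNNGAA stood in 6.58%, 7.83% and 6.47%. For the heat shock element GAANNTTC the shares were 5.46%, 5.65% and 5.64%, and for the C/EBP-ATF element TGATGNAA 2.20%, 2.18% and 3.13%. In the 307 genes more than 4-fold higher the shares were 3.58% for the CRE, 7.49% for AP-1, 1.95% for the CArG box, 5.54% each for kappaB and the heat shock element, 37.5% for the metal core, 13.4% for the E-box, 18.9% for the antioxidant element, 10.4% for STAT and 2.28% for C/EBP-ATF. A match is a run of letters and not an occupied site.

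Among the EGF, GDNF and neurotrophin families *Hbegf*, *Btc*, *Areg* and *Gdnf* rose in the pulldown, and the other tested ligands did not pass the test. *Hbegf*, a membrane-bound ligand of the EGF receptor that is shed on injury, was at 26.9, 43.3 and 27.8 CPM in naïve libraries and at 2296, 3179, 3531 and 3715 CPM at IM3h (6.60 ± 0.36, adjusted p = 2.75e-06). Every IM3h library was far above every naïve library, and in total *ME* RNA the gene went from 3.85 to 92.6 CPM. Of 9 EGF family ligands tested 3 rose. *Btc* rose 24-fold from 4.31 ± 1.53 to 104 ± 22.4 CPM, with 6.61 and 10.9 CPM in total *ME* RNA. *Areg* had no count in naïve libraries and 33.6, 33.6, 29.3 and 19.1 CPM at IM3h, at least 50.6-fold higher. *Ereg* (1.5 ± 1.32 and 10.7 ± 5.03 CPM) had an adjusted p of 0.116, and the other 5 ligands, *Egf*, *Tgfa*, *Nrg1*, *Nrg2* and *Nrg4*, had means under 7 CPM in both groups. Of the 3 receptors tested, *Erbb3*, through which neuregulin acts on cells of the glial lineage, fell from 125 ± 28.6 to 60.9 ± 12.1 CPM (adjusted p = 0.0215), with an adjusted p of up to 0.108 when IM3h library 2 or naïve library 1 or 3 was left out. *Egfr* had 20.9 ± 8.16 and 29.2 ± 7.35 CPM and *Erbb2* 13.6 ± 7.78 and 21.2 ± 16.3 CPM, which overlapped.

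*Gdnf* (chr15:7810846-7837575 of mm10, plus strand), the factor that guides and sustains enteric neurons and their precursors, was at 5.71, 10.1 and 18.4 CPM in naïve libraries and at 553, 877, 807 and 773 CPM at IM3h (6.04 ± 0.43, adjusted p = 9.07e-06). The total *ME* values were 18.4 and 78.0 CPM. It was the 1 ligand that rose among 6 tested of the GDNF and neurotrophin families. *Bdnf* stayed under 12 CPM in all libraries, with overlapping values. The mean of neurturin, *Nrtn*, was 21.5 ± 18.3 and 13.7 ± 5.52 CPM. Among 8 receptors, *Gfra2*, the binding subunit for neurturin, fell from 234, 303 and 153 CPM to 72, 76.4, 78.4 and 131 CPM (-1.36 ± 0.30, adjusted p = 0.00946), and had an adjusted p of 0.0593 without naïve library 2. The GDNF receptor pair *Gfra1* and *Ret* overlapped between the groups at 200 ± 19.9 and 166 ± 31.7 CPM and at 50.9 ± 28.1 and 78.6 ± 37.8 CPM.

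Some other secreted factors rose as well. *Ucn2*, a peptide of the corticotropin-releasing hormone family, had no naïve count and 51.4, 67.5, 12.5 and 7.71 CPM at IM3h, at least 60.8-fold higher. In the list of TGF-β, activin and BMP genes 5 of 34 rose and 2 fell, beside 9.0% and 4.60% of all tested genes. Among those that rose were *Inhba*, the subunit of activin A (from 11.2 ± 2.75 to 57.3 ± 22.7 CPM), the repressor *Tgif1* (from 8.21 ± 2.18 to 65.7 ± 30 CPM) and *Skil*, which restrains SMAD proteins (3.18-fold). *Tgfb3* fell from 45.6 ± 12 to 11.3 ± 1.39 CPM and *Bmp4* fell as well, from 82.1 ± 25.2 to 22.4 ± 10.3 CPM. The count of 5 was 3 without IM3h library 2, naïve library 1 or naïve library 3, and 9 without IM3h library 4.

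**Figure D2:**
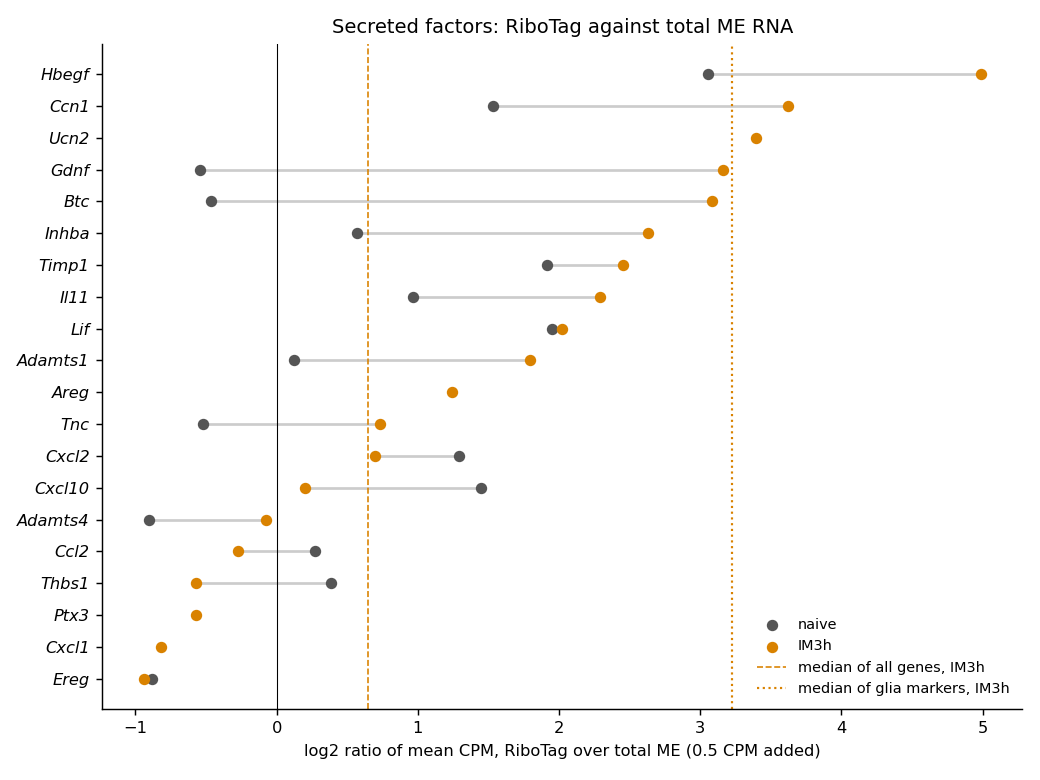
Log2 ratio of the mean CPM in *RiboTag* over total *ME* RNA (horizontal axis, 0.5 CPM added) of secreted factors in naïve (grey, drawn where either fraction reached 1 CPM) and IM3h libraries (orange), with the IM3h medians of all genes and of glia markers as lines. *Hbegf* and *Gdnf* lie at 4.99 and 3.16 at IM3h, near or beyond the glia marker median of 3.23, while *Ccl2* and *Cxcl1* lie at -0.27 and -0.82.

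Several cytokine and chemokine mRNAs rose from low levels. In the IL-6 family 7 of 17 tested genes rose and none fell, 2 of 5 ligands, 2 of 6 receptors and 3 of 6 signal transducers or inhibitors. *Il11*, a ligand, rose from 2.45, 2.15 and 0 CPM to 22.2, 77.8, 37.1 and 26.7 CPM (4.72 ± 0.84, adjusted p = 0.00304). *Il6* itself had no count in naïve libraries and 4.15, 5.12, 0 and 14.2 CPM at IM3h, so 1 library of 4 also held none, and its adjusted p was 0.0516. *Lif*, a related ligand, rose from 1.82 ± 2.84 to 29.7 ± 14.8 CPM. *Socs3*, the inhibitor that this family induces, rose from 5.71, 8.62 and 13.5 CPM to 79.8, 128, 76.2 and 38.2 CPM (3.11 ± 0.46, adjusted p = 0.00101), and *Jak1* from 201 ± 50.8 to 510 ± 100 CPM. *Stat3* (2.05-fold, adjusted p = 0.0186), the shared receptor chain *Il6st* (2.06-fold, 0.0264) and the oncostatin receptor *Osmr* (3.15-fold, 0.0397) rose as well. *Lif*, *Stat3*, *Il6st* and *Osmr* reached adjusted p values of 0.0886, 0.0913, 0.113 and 0.136 with 1 library left out, and the count of 7 was 4 without IM3h library 1 or 3 or naïve library 2, and 3 without IM3h library 2 or naïve library 3.

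Of 16 chemokines tested 4 rose, *Ccl2*, *Cxcl1*, *Cxcl2* and *Cxcl10*. *Ccl2*, which draws monocytes, had 0.816, 0.539 and 4.32 CPM in naïve libraries and 367, 240, 107 and 68.9 CPM at IM3h (6.68 ± 0.82, adjusted p = 0.00035). The neutrophil attractants *Cxcl1* (from 0.778 ± 0.622 to 24 ± 10.5 CPM) and *Cxcl2* (from 1.97 ± 3.41 to 73.7 ± 23.1 CPM) also lay above every naïve library. *Cxcl10* had 3.47 ± 4.47 and 22.9 ± 9.48 CPM, and its adjusted p of 0.047 rose to as much as 0.140 when 1 of 5 libraries (IM3h libraries 1, 2 and 3, naïve libraries 1 and 3) was left out. In total *ME* RNA *Ccl2*, *Cxcl1* and *Cxcl2* were at 234, 39.4 and 41.6 CPM at IM3h. The markers of macrophages and monocytes summed to 191 to 385 CPM in naïve and 146 to 314 CPM in IM3h libraries, 1 of 15 (*Itgam*) rose and none fell. The neutrophil markers summed to 1.88 to 10.8 and 5.75 to 17.9 CPM with 0 of 3 called.

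On the receiving side, 3 of 11 receptors of the IL-1 and TNF systems rose and 0 of 4 ligands. *Tnfrsf12a*, the receptor of TWEAK, rose from 6.53, 19 and 26.3 CPM to 452, 404, 275 and 85.6 CPM (4.13 ± 0.61, adjusted p = 0.00106). *Il1rap*, the accessory chain of the IL-1 receptor, rose from 11 ± 3.33 to 75.8 ± 37.4 CPM, whereas *Il1r1* overlapped at 15.3 ± 9.27 and 42.6 ± 18.1 CPM (adjusted p = 0.0695). *Fas* rose 4.73-fold. Of 26 genes of the NF-κB system 9 rose, 3 of 9 inhibitors, 3 of 5 subunits and 3 of 12 kinases and adaptors. *Nfkbia*, the inhibitor that NF-κB itself induces, was at 284, 133 and 150 CPM and then at 2446, 2572, 2859 and 4511 CPM (4.03 ± 0.38, adjusted p = 4.46e-05). The subunits *Rel* (from 8.29 ± 3.55 to 65.3 ± 18.7 CPM) and *Nfkb1* (from 86.5 ± 31.1 to 280 ± 81.2 CPM) rose. *Rela* rose 1.92-fold (adjusted p = 0.0335, and up to 0.137 without 1 of IM3h libraries 1, 2 and 3 or naïve libraries 2 and 3). *Nfkb2* had 119 ± 51.3 and 64.9 ± 21.7 CPM with an adjusted p of 0.118. The count of 9 was 5 without IM3h library 2 or 3, or naïve library 2 or 3.

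Several gliosis genes rose while several genes of glial identity fell. Of 18 filament and scar genes 8 rose and 2 fell, with a median of 1.29. *Nes* (chr3:87971078-87980451 of mm10, plus strand), the intermediate filament nestin of progenitors and reactive glia, had 63.6, 43.3 and 93.6 CPM in naïve libraries and 1001, 1008, 1366 and 1863 CPM at IM3h (4.29 ± 0.37, adjusted p = 2.67e-05). *Gfap*, the filament that defines reactive glia, rose from 207, 117 and 133 CPM to 746, 738, 650 and 790 CPM (2.26 ± 0.26, adjusted p = 0.000208). In both genes the lowest IM3h library was above the highest naïve library. *Cd44*, the hyaluronan receptor, rose from 54.8 ± 23.3 to 576 ± 145 CPM and *Tnc*, the matrix protein tenascin C, from 65.4 ± 13.8 to 476 ± 204 CPM. *Ptx3*, a soluble pattern recognition protein, had no naïve count and was at least 37.2-fold higher (21.2 ± 7.48 CPM at IM3h). *Sdc4*, a syndecan of the cell surface, rose from 149 ± 91.1 to 2198 ± 404 CPM.

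**Figure D3:**
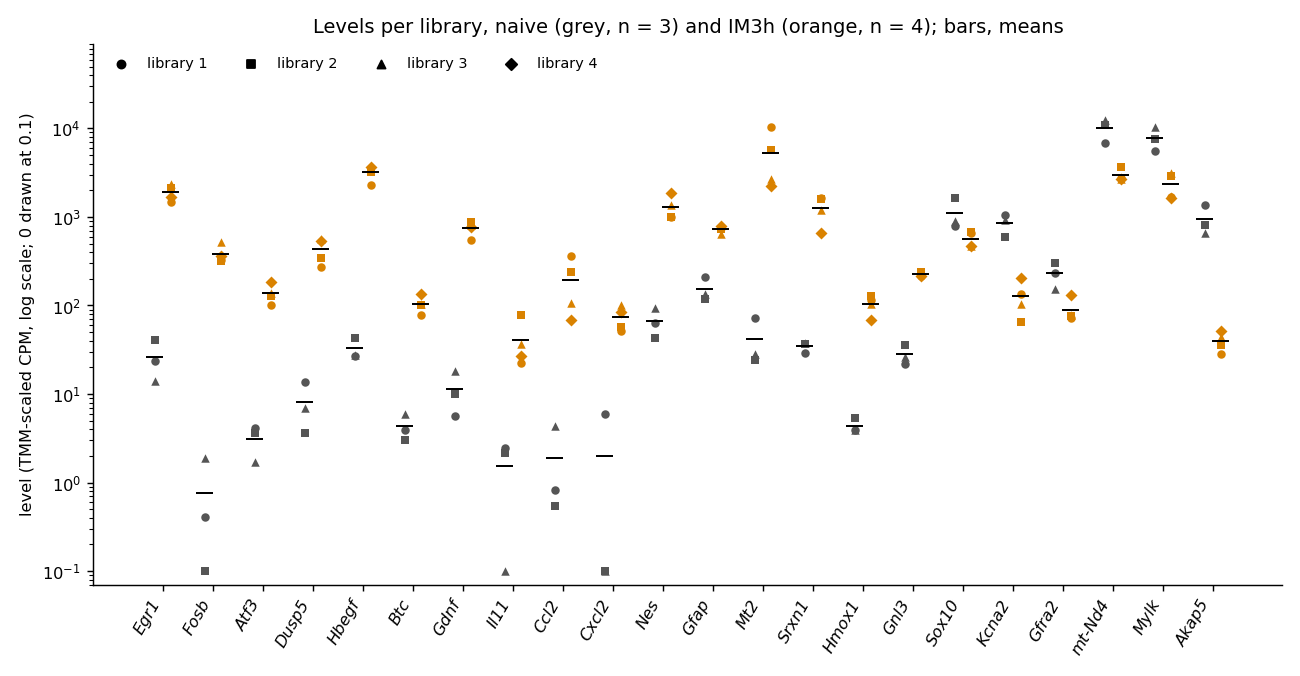
TMM-scaled CPM of each naïve (n = 3) and IM3h (n = 4) library on a log axis for genes that rose or fell, with a value of 0 drawn at 0.1 and bars at the means. For *Hbegf*, *Gdnf*, *Nes* and *Gfap* all 4 IM3h libraries lie above all 3 naïve libraries.

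Of 30 tested genes of enteric glia identity 5 rose and 7 fell, with a median of -0.42. The IM3h libraries held *Sox10* at 655, 678, 466 and 468 CPM and the naïve libraries at 780, 1650 and 909 CPM (-0.97 ± 0.29, adjusted p = 0.0414, and up to 0.257 without 1 of IM3h libraries 1, 2 and 3 or naïve libraries 2 and 3). *Fabp7*, a fatty acid binding protein of immature glia, had 32.8, 10.8 and 15.8 CPM and then 1.51, 1.28, 0 and 0 CPM (adjusted p = 0.0133, 0.0957 without naïve library 1). *Sostdc1*, a secreted antagonist of BMP and Wnt, fell from 160 ± 15.8 to 46 ± 10.8 CPM (-1.79 ± 0.26, adjusted p = 0.000904). *Sox2*, the progenitor factor, rose from 36.8 ± 4.99 to 115 ± 23.4 CPM, and *Cdh19*, a cadherin of Schwann cell precursors, from 18.5 ± 11 to 55.1 ± 16.5 CPM. *Foxd3* (56.1 ± 20 and 46.1 ± 16.9 CPM) and *S100b* overlapped. *S100b* had 1129, 683 and 842 CPM in naïve libraries and 571, 458, 729 and 2851 CPM at IM3h, so that 3 IM3h libraries lay near or below naïve and library 4 far above. The other glia markers *Ngfr*, *Entpd2*, *Gfra3*, *Ednrb* and *Gpm6b* had adjusted p values from 0.134 to 0.971. The 12 glia markers summed to 2794 to 3563 CPM in naïve libraries and to 2506, 2213, 2009 and 4226 CPM in IM3h libraries 1 to 4, so that only library 4, in which *S100b* made up 2851 CPM, was not below naïve. The identity counts moved with single libraries. Genes that rose numbered 1 without naïve library 1 or 3, 2 without IM3h library 1 and 3 without IM3h library 3 or naïve library 2. Genes that fell numbered 2 without naïve library 3 and 4 without IM3h library 2 or 3 or naïve library 1 or 2. *Cdh19* had an adjusted p of up to 0.117 without IM3h library 1 or naïve library 1 or 3.

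Of 24 ion channels, transporters and gap junction genes 4 rose and 4 fell. The falling ones were the voltage-gated potassium channels *Kcna1*, *Kcna2* and *Kcna6* and the inwardly rectifying potassium channel *Kcnj10* (55.3 ± 18.1 to 17.1 ± 7.58 CPM, adjusted p = 0.0165, and up to 0.1 without naïve library 2 or IM3h library 3). *Kcna2* fell from 1055, 597 and 927 CPM to 133, 65.4, 105 and 207 CPM (-2.75 ± 0.36, adjusted p = 0.0004), *Kcna6* from 165 ± 17.7 to 50 ± 11.1 CPM, and *Kcna1* from 391 ± 29.9 to 161 ± 59.9 CPM (adjusted p = 0.0116, 0.0543 without naïve library 3). No value overlapped in these 3 members of the Shaker family, which set the resting potential and repolarise the membrane. In total *ME* RNA they went from 111 to 34.8, from 10.4 to 3.62 and from 21.1 to 5.49 CPM. *Panx1*, a channel that releases ATP, rose from 22 ± 2.32 to 86.2 ± 14.1 CPM and *Kcnk10*, a leak potassium channel opened by stretch and lipids, from 7.15 ± 3.19 to 50.4 ± 11.3 CPM. The count that rose was 2 without naïve library 2 or 3.

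The Hedgehog and Wnt pathways held 7 falling and no rising genes among 24 tested, with a median of -0.36. *Nkd2*, which restrains Wnt signalling, fell from 244, 352 and 284 CPM to 39.5, 91.6, 72.3 and 48.4 CPM (-2.22 ± 0.30, adjusted p = 0.000571). The Wnt-responsive repressor *Tcf7l1* fell from 115 ± 14.2 to 30.1 ± 9.73 CPM. *Ptch1*, receptor and target of Hedgehog, fell from 75.7, 64.5 and 65.6 CPM to 26.4, 19.5, 19.7 and 20.2 CPM (-1.67 ± 0.29, adjusted p = 0.00236). The count of 7 was 4 without naïve library 1 or 2 and 3 without naïve library 3. In the same libraries 6 of 12 smooth muscle, 4 of 8 mesothelial and 3 of 11 fibroblast markers fell, and their part in this was not tested. In the Notch list 3 of 18 rose and 1 fell, beside 9.0% and 4.60% of all tested genes. Without IM3h library 3 or naïve library 1 or 3 the number that rose was 1. The 1 that fell was the target *Heyl*, from 20.7 ± 1.3 to 1.21 ± 1.26 CPM (adjusted p = 0.0113, 0.0523 without naïve library 3). The Notch ligand *Dll1* had 2 counts in naïve libraries in all and 6.29, 7.03, 7.23 and 17.6 CPM at IM3h (adjusted p = 0.0113).

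Several genes that reshape clots and matrix rose. In the list of plasminogen, coagulation and matrix proteases 10 of 26 rose and none fell, with a median of 0.88, and 6 rose when IM3h library 1, 2 or 3 or naïve library 1 or 2 was left out. *Adamts1*, a proteoglycan-cleaving protease, was at 7.14, 7.9 and 20.9 CPM and then at 539, 470, 356 and 235 CPM (5.06 ± 0.47, adjusted p = 4.33e-05), so that all IM3h libraries lay above all naïve libraries. The related protease *Adamts4* (from 0.376 ± 0.651 to 69.4 ± 12.3 CPM) rose, as did the metalloprotease inhibitor *Timp1* (from 9.62 ± 9.35 to 68.3 ± 10.5 CPM). *Ccn1*, a matricellular protein and target of YAP and SRF, rose from 7.84 ± 5.65 to 348 ± 39.3 CPM, and *Thbs1*, thrombospondin 1, from 52.9 ± 16.6 to 401 ± 163 CPM. Of 45 genes of the extracellular matrix 4 rose, beside 9.0% of all tested genes, *Thbs1* and *Tnc* among them, and 2 rose without any 1 library other than IM3h library 2 or 4. The 6 that fell included *Col3a1* (413 ± 26.5 to 112 ± 34.2 CPM), *Col1a1* (331 ± 38.6 to 133 ± 27.5 CPM) and *Dcn* (327 ± 66.4 to 105 ± 17 CPM). These 3 are fibroblast markers, and the 11 markers of fibroblasts summed to 1492 to 1648 CPM in naïve and 611 to 880 CPM in IM3h libraries. Their part in the fall of matrix genes was not tested. Of the prostaglandin, nitric oxide and sphingosine genes 3 of 14 enzymes and 1 of 9 receptors rose, beside 9.0% of all tested genes. They were led by *Sphk1*, the kinase that makes sphingosine-1-phosphate (from 5.87 ± 2.56 to 94.7 ± 12.1 CPM). *Ptgs2*, cyclooxygenase 2, rose 6.33-fold (adjusted p = 0.015), with 0.0608 as the highest value when 1 of IM3h libraries 2 and 3 or naïve library 2 was left out, and the count of 4 was then 2, as it was without IM3h library 1 or naïve library 3.

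Part of the genes of metal, oxidative and heat stress rose, 4 of 9, 6 of 22 and 10 of 31 of those tested. The metallothioneins, small proteins that bind zinc and copper, gave the largest gains in CPM among the stress genes named here. *Mt2* was at 72.2, 24.1 and 28 CPM and then at 10456, 5745, 2668 and 2251 CPM (7.0 ± 0.71, adjusted p = 8.2e-05), and *Mt1* at 150, 107 and 132 CPM and then at 7256, 4910, 3236 and 2983 CPM (5.14 ± 0.40, adjusted p = 1.41e-05). IM3h library 1 was the highest for both. They went from 15.5 to 1453 and from 59.2 to 2351 CPM in total *ME* RNA. Of 9 tested genes of metallothioneins and zinc transport 4 rose, and 2 without IM3h library 2 or 3 or naïve library 1 or 3, when the zinc importers *Slc39a10* (3.30-fold) and *Slc39a14* (6.58-fold) both lost their call. Among 22 targets of NRF2, the factor of the oxidative stress response, 6 rose and 2 fell. *Srxn1*, sulfiredoxin, which repairs peroxiredoxins, rose from 29.4, 37 and 37.6 CPM to 1642, 1576, 1186 and 657 CPM (5.19 ± 0.38, adjusted p = 1.01e-05), where total *ME* RNA went from 28.2 to 160 CPM. *Hmox1*, haem oxygenase 1, rose from 4.4 ± 0.853 to 103 ± 25.5 CPM, *Txnrd1*, thioredoxin reductase, from 34.2 ± 8.92 to 271 ± 30.9 CPM and *Gclc*, which starts glutathione synthesis, from 48.7 ± 7.07 to 228 ± 83.1 CPM.

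Of 31 heat shock proteins and cochaperones 10 rose and none fell, with a median of 0.67, among them *Bag3* (94.1 ± 17.1 to 386 ± 74.6 CPM), the mitochondrial chaperones *Hspa9* (194 ± 36.7 to 677 ± 152 CPM) and *Hspd1* (130 ± 5 to 358 ± 56.7 CPM) and the cochaperone *Dnaja1* (2.88-fold). *Hsp90aa1*, the inducible cytosolic HSP90, rose from 1383 ± 217 to 3695 ± 1359 CPM (adjusted p = 0.00867, 0.0519 without naïve library 3). In the integrated stress response 6 of 32 rose and 1 fell. Its effector *Atf4* rose from 153 ± 32.1 to 661 ± 101 CPM, its phosphatase subunit *Ppp1r15a* from 24.2 ± 12.4 to 267 ± 86.8 CPM, and the amino acid transporters *Slc7a5* and *Slc7a1* rose 5.46-fold and 3.97-fold. In the unfolded protein response 2 of 25 rose, beside 9.0% of all tested genes, the chaperones *Hspa5* (2.28-fold) and *Hsp90b1* (2.40-fold), with 5 without IM3h library 4 and 1 without IM3h library 3 or any 1 naïve library. The list of 24 genes of p53 and growth arrest also holds survival genes. Of these 24 genes 14 rose and 1 fell, with a median of 1.80, and the 9 not called include known p53 targets. *Mcl1*, which protects cells from apoptosis, rose from 148, 108 and 94.1 CPM to 442, 499, 496 and 436 CPM, and *Phlda1* rose 15.6-fold. Of 18 known glucocorticoid targets 10 rose and none fell, *Fkbp5*, a chaperone of the glucocorticoid receptor, 5.63-fold from 12.3 ± 1.47 to 69.5 ± 10.5 CPM. Of those 18 targets 8 were not called, and the list shares genes such as *Mt1*, *Mt2*, *Per1*, *Errfi1* and *Klf9* with groups above.

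The machinery that makes ribosomes rose broadly. Of 44 genes of ribosome biogenesis and the nucleolus 32 rose and none fell, with a median of 1.74, and 24 to 33 rose when any 1 library was left out. *Ncl*, nucleolin, had 638, 515 and 557 CPM and then 2084, 2285, 3196 and 4290 CPM (2.38 ± 0.30, adjusted p = 0.000371). *Ddx21*, a nucleolar RNA helicase, rose from 99.1, 97.5 and 89 CPM to 582, 719, 871 and 1558 CPM, and *Gnl3*, nucleostemin, from 21.6, 35.7 and 26.5 CPM to 213, 237, 233 and 217 CPM (3.01 ± 0.26, adjusted p = 2.85e-05). *Gnl3* was nearly level across the IM3h libraries, whereas library 4 was the highest for *Ncl* and *Ddx21*. *Utp4* and *Wdr43*, parts of the complex that processes the small subunit RNA, rose 13.3-fold and 5.07-fold. Of 26 translation factors 10 rose and 1 fell, with the initiation factors *Eif1a* (9.28-fold), *Eif4e* (3.94-fold) and *Eif5* (3.42-fold) and the release factor *Etf1* (4.23-fold) having the smallest adjusted p. Of 19 host genes of small nucleolar RNA 7 rose and 1 fell, with *Snhg1* rising from 26.8 ± 2.69 to 195 ± 46.1 CPM, *Snhg12* 4.76-fold and *Gas5* 2.92-fold. *Snhg18* fell from 36.3 ± 6.73 to 11.2 ± 2.16 CPM. The count of 7 was 3 without naïve library 1 or 3 and 4 without naïve library 2.

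The ribosomal proteins themselves showed a smaller shift, with 15 of 78 higher and 4 lower, and a median of 0.37. *Rps27a*, *Rpl8* and *Rps25* rose 2.12-fold, 2.32-fold and 2.27-fold and *Rpl29* fell from 99.2 ± 23.8 to 31.3 ± 13 CPM. The count of 4 was 1 without any 1 library other than IM3h library 4 and naïve library 3, and 0 without the latter. The count of 15 was 6 without IM3h library 3, 3 without naïve library 2 and 2 without naïve library 3. *Rpl22*, the tagged gene, had 74.8 ± 16.2 and 93.3 ± 23.5 CPM, which overlapped. Processed pseudogenes, many of them copies of abundant mRNAs that share reads with their parent gene, rose in 102 of 623 tested (16.4%) and fell in 4. *Gm6477* and *Rpl17-ps3* had no naïve count and were at least 218-fold and 142-fold higher at IM3h, but their source cannot be told apart from the parent genes and their values are uncertain. *CT010467.1*, which overlaps *AY036118* and ribosomal RNA sequence, rose from 4920 ± 2565 to 27740 ± 8993 CPM. *Klk9*, a kallikrein protease, had no naïve count and 19.4, 39.2, 23.3 and 52.6 CPM at IM3h, at least 58.8-fold higher. The same held for *Zfp593* (at least 42.9-fold), *Fam71a* (at least 39.3-fold), the antisense RNA *5031434C07Rik* (at least 45.4-fold) and the pseudogenes *Fabp5l2* (at least 50-fold) and *Gm8822* (at least 36.9-fold). The sources used here do not say whether counting used strand, so reads of the antisense RNA and its partner cannot be told apart.

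Most mitochondrially encoded genes of the respiratory chain fell. Of 13 mitochondrially encoded genes 9 fell and none rose, with a median of -1.55, and 8 to 10 fell when any 1 library was left out. *mt-Nd4*, a subunit of complex I, fell from 6775, 11048 and 12544 CPM to 2750, 3697, 2705 and 2714 CPM (-1.77 ± 0.28, adjusted p = 0.00144), *mt-Cytb* of complex III from 5761 ± 1991 to 1299 ± 445 CPM, and *mt-Co3* of complex IV from 11406 ± 1961 to 3864 ± 1189 CPM. *mt-Nd1*, *mt-Atp6* and *mt-Co2* were 3.65-fold, 3.76-fold and 2.84-fold lower. In total *ME* RNA the values were close between conditions, 18101 and 17500 CPM for *mt-Nd4* and 13571 and 13789 CPM for *mt-Co3*. Mitochondrial mRNA is translated on ribosomes inside mitochondria that hold no RPL22. Of 84 nuclear genes of the chain 23 fell and none rose, with a median of -0.72. *Ndufb8* fell from 280 ± 44.3 to 85.8 ± 15.7 CPM, *Ndufs8* from 42 ± 7.43 to 9.64 ± 2.78 CPM and *Uqcrc1* from 141 ± 9.39 to 48.1 ± 9.23 CPM. The count of 23 was 7 without naïve library 3, 13 without naïve library 1 or 2, 12 without IM3h library 3 and 37 without IM3h library 4.

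Among markers of other cells of the *ME*, those called fell in smooth muscle, mesothelium, interstitial cells of Cajal and fibroblasts, and the other lists had at most 1 call in each direction. Of 12 smooth muscle markers 6 fell and none rose, their sum was 18868 to 26329 CPM in naïve and 6407 to 14211 CPM in IM3h libraries, and *Mylk* and *Acta2* fell 3.30-fold and 2.48-fold (*Acta2* had an adjusted p of 0.0713 without naïve library 3). The contractile genes *Myl9* and *Cnn2* fell from 2910 ± 385 to 895 ± 276 CPM and from 99.3 ± 8.8 to 23.6 ± 9.32 CPM, and filamin A, *Flna*, fell from 4478 ± 1318 to 2066 ± 608 CPM. Of 8 mesothelial markers 4 fell (2 without naïve library 1), with a sum of 237 to 565 and 43.0 to 176 CPM, among them *Lrrn4* (59.6 ± 15.5 to 2.07 ± 2.04 CPM), and of 7 markers of interstitial cells of Cajal 2 fell (475 to 600 and 154 to 341 CPM), 1 without naïve library 1 and none without naïve library 3. The neuron markers summed to 1587 to 3596 and 2597 to 6212 CPM, with 1 of 17 higher, 4 without IM3h library 4, 2 without naïve library 2 and none without IM3h library 1 or naïve library 1 or 3. Of the 10 endothelial markers *Cldn5* rose and *Egfl7* fell, of 9 proliferation markers *Pcna* rose, and 1 each of 11 epithelial (*Muc2*), 6 adipocyte (*Cfd*) and 5 erythroid (*Hbb-bs*) markers fell. No marker of lymphocytes and mast cells passed the filter. The part of these markers in the fall of the respiratory chain and of other genes was not tested. In libraries of a pulldown, fewer cells of a type, less RNA per cell and less of their RNA carried into the pulldown cannot be told apart.

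**Figure D4:**
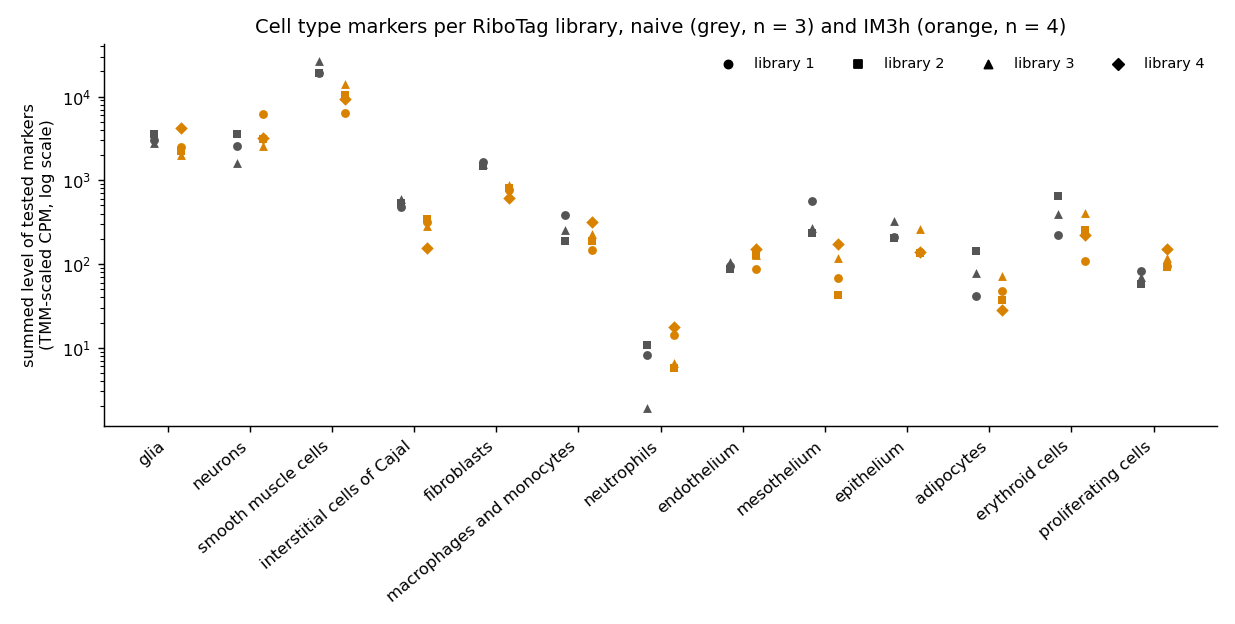
Summed TMM-scaled CPM of marker lists in each library (log axis), for naïve (n = 3) and IM3h (n = 4). The sums of smooth muscle markers lie at 18868 to 26329 CPM in naïve and 6407 to 14211 CPM in IM3h libraries, while those of glia overlap through IM3h library 4 only.

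A set of 4 genes fell almost alike. *Akap5*, a scaffold of protein kinase A, was at 1353, 811 and 651 CPM in naïve libraries and at 28.2, 35.6, 44.2 and 51.4 CPM at IM3h (-4.56 ± 0.32, adjusted p = 9.07e-06). *Lrrc17* went from 779 ± 288 to 36.6 ± 7.52 CPM, *Elp6*, a subunit of the elongator complex, from 577 ± 277 to 28 ± 6.03 CPM, and *Tatdn1*, a predicted deoxyribonuclease, from 1525 ± 717 to 77.2 ± 30.3 CPM. Naïve library 1 was the highest for all 4, and their folds were 23.6, 21.3, 20.6 and 19.8. In total *ME* RNA they went from 175 to 150, from 160 to 146, from 98.6 to 92.7 and from 281 to 262 CPM. Other steep falls were those of *4632404M16Rik* (58.2 ± 26.3 to 1.75 ± 2.4 CPM) and *Nmrk2*, a kinase of NAD synthesis (28.1 ± 5.24 to 1.34 ± 1.57 CPM). The loci *Gm43023*, *Gm47623*, *Gm42981* and *Gm44005* fell to means from 0.591 to 1.09 CPM. They are of the annotation class TEC, loci still to be experimentally checked, of which 59 of 939 fell and 18 rose, with a median of -0.54.

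Metabolic lists held genes of both directions. In glycolysis and hypoxia 5 of 29 rose and 2 fell, beside 9.0% and 4.60% of all tested genes. *Pfkfb3*, which drives glycolysis through fructose-2,6-bisphosphate, rose from 7.95, 10.1 and 15.8 CPM to 113, 169, 156 and 138 CPM (3.67 ± 0.33, adjusted p = 3.69e-05) and *Hk2* rose 3.80-fold, whereas *Aldoa* fell from 613 ± 59.7 to 227 ± 22.6 CPM and *Egln3* fell from 78.7 ± 23.8 to 27.6 ± 7.5 CPM. The count that rose was 3 without IM3h library 3, and the count that fell was 1 without naïve library 2. In cholesterol and fatty acid synthesis 8 of 32 rose and 4 fell. Enzymes of the sterol branch were among the rising ones, with *Sqle* 4.96-fold, *Cyp51* 3.86-fold and *Msmo1* 3.31-fold higher. The falling ones, with *Fasn* (148 ± 24.8 to 51.6 ± 5.22 CPM) and *Fads2* (397 ± 63.1 to 133 ± 38.8 CPM), make or desaturate fatty acids, and 2 fell without naïve library 3. Of 11 polyamine genes 4 rose and 2 fell, and *Azin1*, which frees ornithine decarboxylase from its inhibitor, rose from 85.3, 124 and 113 CPM to 1514, 1193, 828 and 484 CPM. With any 1 library other than IM3h library 4 left out, 1 or 2 polyamine genes rose.

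Of 29 genes of the interferon response and class I presentation 8 rose and none fell. *Gbp2*, an interferon-induced GTPase, rose from 39.2, 43.8 and 30.8 CPM to 320, 392, 322 and 403 CPM (3.24 ± 0.26, adjusted p = 1.61e-05), *Gbp3* 2.84-fold, *Irf1* 2.71-fold and the peptide transporter *Tap1* 3.07-fold. Of 19 clock genes 6 rose, among them *Cry1* (14.1 ± 2.71 to 86.9 ± 10.8 CPM) and *Per2* (8.02 ± 5.48 to 52.6 ± 16.6 CPM), and *Bhlhe40* rose 3.41-fold. The time of day of collection is not given in the sources used here. Over all tested genes 9.0% rose and 4.60% fell. Beside these shares, 3 of 39 were higher and 2 lower in axon guidance and adhesion, 3 of 31 and 2 in autophagy and lysosome, 4 of 37 and 0 in the proteasome, 1 of 18 and 0 in purinergic receptors, and 4 of 27 and 5 in targets of YAP and SRF. Among their members *Sema3e* (3.60-fold), *Psmd2* (3.04-fold) and *Sqstm1* (1.97-fold) rose and *Slit2* fell from 99.8 ± 33.3 to 39.8 ± 12.5 CPM. With 1 library left out, the higher counts were 1 to 3 for axon guidance and 1 to 5 for the proteasome, and 2 to 5 YAP and SRF targets fell.

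**Figure D5:**
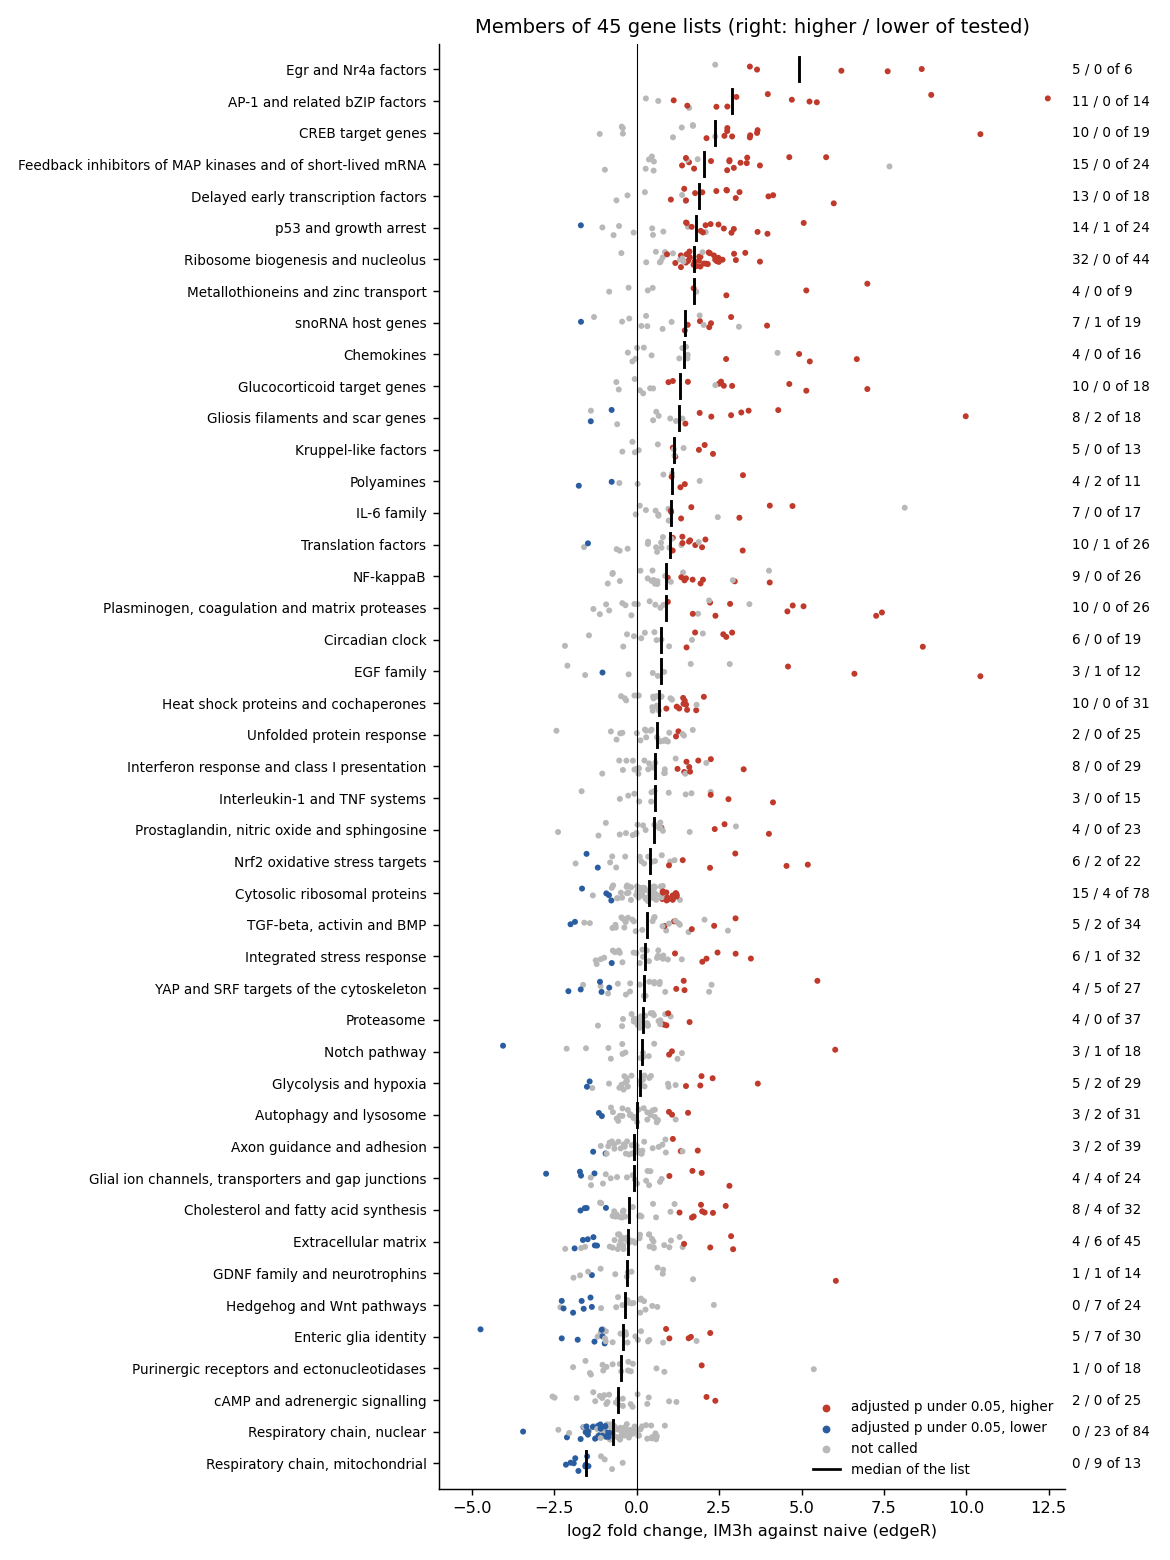
Log2 fold change of the tested genes of each list (points, coloured where the adjusted p was under 0.05) with the list median (bar), IM3h over naïve, and the counts higher and lower of those tested at the right. The medians run from 4.93 for Egr and Nr4a factors and 2.89 for AP-1 factors to -1.55 for the mitochondrial genes of the respiratory chain, around the median of all genes of -0.04.

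Transcript usage within a gene changed in 112 of 6616 tested genes (1.69%) by the gene-level test of edgeR. *Idh3a*, a subunit of a citric acid cycle dehydrogenase, had 94.9% of its counts in transcript 201 in naïve libraries and 43.2% at IM3h, while transcript 203 went from 0.214% to 45.4% (adjusted p = 0.000479). Transcript 204 of *Hsd17b12*, an enzyme of fatty acid elongation, went from 93.5% to 43.3% (adjusted p = 0.000479). *Dda1*, *Hmgxb3*, *Rbsn* and *Sec11a* were the others with the largest shifts. Some shares were uneven between libraries. Transcript 204 of *Hsd17b12* held 66.4%, 64.6%, 35.2% and 6.90% in IM3h libraries. Transcript 206 of *Dda1* held 97.4%, 9.60% and 95% in naïve libraries and none at IM3h. The libraries read 3′ ends, so that a share reflects the choice of 3′ end or the assignment of reads among overlapping transcripts, which cannot be told apart. Without IM3h library 3, naïve library 2 or naïve library 3, 70, 51 and 57 genes were called.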

How the data were processed

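mRNA on HA-tagged ribosomes of *Sox10*-expressing cells of the *ME* was precipitated and sequenced as 3′ end libraries. Per the labels and the submitters' processing notes, the authors trimmed reads with cutadapt, aligned them with STAR to mm10 and quantified transcripts of an Ensembl annotation in Partek Flow. The deposited table holds estimated counts of 48886 transcripts made by the authors without scaling for library size, and 53.1% of its values are not whole (tolerance 1e-06). It lists transcripts with a total of 10 or more counts. The authors' comparison tables, which hold fold changes and p-values, were not used. No column of per-sample values was left unmapped. Each line of the table was assigned to a group by the group entry of the table itself, and libraries were numbered by the order of line names.

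Counts were summed to genes by symbol, rounded, scaled by TMM, filtered with filterByExpr and tested with edgeR 4.0.16 (R 4.3.3, limma 3.58.1) by the robust quasi-likelihood test, two-sided, between the 7 libraries only, with Benjamini-Hochberg adjustment over all tested genes. Transcript usage was tested with diffSpliceDGE. The scripts were tested on simulated data. For bounds, a gene with at most 3 counts in every library of a group was set to a floor of 3 counts per library there. This floor was 0.571 CPM in naïve and 0.477 CPM in IM3h libraries on average, and such bounds cover counting error only. Total *ME* levels are CPM of the gene-level estimated counts deposited by the authors, divided by the library total. Promoter windows and motifs were read from RefSeq (GRCm38.p6).

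Members and the 45 gene and 14 marker lists were chosen with earlier results of these data known. Genes were named by a rule: among genes with an adjusted p under 0.05, no overlap between groups and at least 20 CPM, the 12 largest rises and falls and the 8 largest gains and losses of CPM, in each list the 4 members with the smallest adjusted p, ligands and receptors of described families, the glia markers, the 2 most abundant other markers per list, 6 genes of transcript usage, and *AY036118* and *Rpl22*. Part of these is given as counts only, and some genes that the rule names are not reported here. *Jun*, *Junb*, *Jund*, *Maff*, *Mafg*, *Mafk*, *Nr4a3*, *Bmp4*, *Itgam*, *Cldn5*, *Muc2*, *Hbb-bs*, *Kcnj10*, *Fasn* and *Fads2* fall outside it and were named after their values were seen. Alternatives were other scalings (DESeq2 size factors, upper quartile, library total, none), no filter, DESeq2 1.42.0, leaving out ribosomal RNA genes, a fit with all 15 *RiboTag* libraries and leaving out each library.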

Additional observations from a re-analysis of the deposited data

Results flagged for a closer look

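In 17 of 240 sets of 4 IM3h values, 1 library lay far from the others by Dixon's criterion, a limit on the gap over the range, and chance alone gives about 1 in 20. Library 4 was the one apart in 8 sets, library 3 in 5, library 1 in 3 and library 2 in 1. In library 4, *S100b* was at 2851 CPM (others 458 to 729 CPM), *Gfra2* at 131 CPM (others 72 to 78.4 CPM), *Dll1* at 17.6 CPM (others 6.29 to 7.23 CPM) and *Fas* at 19.0 CPM (others 27.9 to 28.9 CPM). The same library held *Slc39a10* at 45 CPM, *Sqle* at 124 CPM, *Sema3e* at 188 CPM and the pseudogene *Fabp5l2* at 69.9 CPM, each above the others. In library 3, *Tatdn1* was at 122 CPM (others 57.1 to 64.7 CPM), *Dcn* at 131 CPM (others 94.1 to 98.1 CPM), *Gm47623* at 3.13 CPM (others 0 CPM), *Zfp593* at 8.41 CPM (others 28.4 to 31.3 CPM) and the summed epithelium markers at 261 CPM (others 134 to 140 CPM). In library 1, *Ptch1* was at 26.4 CPM (others 19.5 to 20.2 CPM), *Tgfa* at 8.81 CPM and *Egf* at 3.65 CPM, and in library 2 *mt-Nd4* was at 3697 CPM (others 2705 to 2750 CPM). The groups still did not overlap for *Gfra2*, *Dll1*, *Ptch1*, *Dcn*, *Tatdn1* and *mt-Nd4*.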

How the results depend on the processing

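No called gene named in the text reversed its direction under any of the 15 alternatives, and 153 of the 196 called genes named in the text kept their call in all of them except the fit with all 15 *RiboTag* libraries. In that fit, where the spread is shared with the libraries of the other time points, 35 genes rose and 17 fell, and 626 and 422 passed the threshold of the study. The cause was not tested. Of the named genes 31 were called there too, among them *Fosb*, *Egr1*, *Hbegf*, *Gdnf*, *Nes*, *Mt1*, *Mt2*, *Ncl* and *Akap5*. DESeq2 called 1931 higher and 1168 lower genes. Without any scaling 323 genes fell, and 790 were lower at the threshold of the study. Of the named genes 8 lost their call without scaling, among them *Sox10*, *Erbb3*, *Kcna1* and *Kcnj10*. Scaling by the library total lost 11 and upper quartile scaling 5, with *Rela*, *Cxcl10* and *Osmr* in both. With no filter on low counts 7 lost it, among them *Cxcl2*, *Junb* and *Lif*. With 1 library left out, 893 to 1754 genes rose, 286 to 1140 fell, 1704 to 2040 and 1174 to 1691 passed the threshold of the study, and 51 to 164 changed in transcript usage. Some calls were lost without at least 1 library, in 40 of the named genes. Beside those described above, *Bmp4*, *Klf9*, *Muc2*, *Rpl8*, *Rpl29*, *Rps25* and *mt-Co2* lost it without naïve library 3 and *Egln3* and *Snhg18* without naïve library 2 (adjusted p up to 0.0636). *Flna*, *Jund*, *Mafg*, *Slit2*, *Hsp90b1*, *Fas*, *Gm47623*, *Pcna*, *Cfd*, *Egfl7*, *Hbb-bs* and *Itgam* lost it without any 1 of several libraries (up to 0.247). Counts of called members within a list moved by over 1.5 times in 355 of 1770 list and alternative pairs. Among them, the 2 falling members each of the NRF2, gliosis, polyamine, axon guidance and autophagy lists were 0 or 1 without any 1 library other than IM3h library 4. Of 58 lists, 10 had a median whose sign changed under another scaling, and all lay within 0.32 of 0 with TMM, glia markers, extracellular matrix and cholesterol synthesis among them. No paired analysis was possible because the lines of the table carry no replicate numbers. With 3 naïve libraries of 4831855 to 4938879 counts, genes under about 1 CPM rest on a few counts, and their changes were not detectable or known only as bounds.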
